A study of Mus musculus with 36 samples.

Results

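Among the 115270 transcripts listed in the RNA-seq files, 65 were higher in resting cortical neurons that lack Actl6b than in resting wild-type neurons, and were also higher in wild-type neurons after 6 h of potassium chloride (KCl) than in matched silenced neurons. They were chosen on CPM, the estimated count of a transcript per 1000000 counts of its library. A transcript was kept when its mean in resting knockout (KO) cultures was at least 3 CPM and at least 1.4 times the mean of resting wild-type (WT) cultures, with the lowest KO culture above the highest WT culture. Its mean after 6 h of KCl also had to be at least 1.5 but under 4 times that of the silenced controls, with the lowest KCl culture above the highest control. The rises in KO and at 6 h are therefore what chose these transcripts and are described here without support from any test. The rule used 4 of the 5 groups of libraries, all but the WT cultures given KCl for 1 h.

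ACTL6B is an actin-related subunit of the neuronal form of the BAF (SWI/SNF) complex, which remodels nucleosomes with energy from ATP. Neurons replace the related subunit ACTL6A with ACTL6B when they leave the cell cycle. Depolarisation with KCl opens voltage-gated calcium channels, and calcium signalling then induces a first wave of genes, many of them for transcription factors such as FOS, and later a second wave that includes genes acting at synapses. Transcripts of the second wave typically need hours of stimulation.

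The neurons were cultured from the cortex of E16.5 mouse embryos and grown for 7 days in vitro, and their total RNA was sequenced with a stranded kit. The 7 resting KO cultures carried the genotype Actl6b-/- and had 2 h of TTX, a blocker of sodium channels, together with APV, a blocker of NMDA receptors. The 3 WT cultures of the 6 h KCl group had 7 h of TTX/APV with 6 h of KCl, and their 4 WT controls had 7 h of TTX/APV alone. The 5 WT cultures of the 1 h KCl group had 2 h of TTX/APV with 1 h of KCl, and the 5 resting WT cultures had 2 h of TTX/APV. All cultures thus had the blockers, and no KO culture was given KCl. Libraries held 6135380 to 7480901 estimated counts in resting KO, 3627450 to 4051922 at 6 h of KCl, 3569516 to 4020984 at 7 h of TTX/APV, 6902985 to 8015063 at 1 h of KCl and 5873349 to 7578714 in resting WT. The libraries of the 7 h blockade were thus the shallower ones, with and without KCl. The transcripts carry Ensembl identifiers, none of which (0 of 115270) matched a gene in the tables used here. The files do not pair identifiers with genes, so members are described by their length in bases and their rank, no gene function is given, and neither the loss of Actl6b nor markers of neurons and other cells were checked.

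At 3 CPM or more in KO there were 23481 transcripts. Of these, 330 (1.41%) met the KO conditions of the rule, 1758 (7.49%) met the KCl conditions, and 65 met both, which was 19.7% of the first list and 3.70% of the second. A pair of members, both 4353 bases long, had identical values in every library, so the 65 hold 64 distinct patterns. Among the 330, the 6 h KCl cultures lay above all 7 h controls with a rise of at least 1.5-fold in 86, of which 21 rose 4-fold or more and were left out by the upper limit. In another 51 of the 330, every 6 h KCl culture lay below every 7 h control. How many of all 23481 transcripts were separated in these ways was not counted, so the 86 and the 51 are a description only. The transcripts raised in KO thus included ones on either side of the KCl comparison. The 65 are those with a rise inside the limits of the rule in CPM, and these limits depend on the scale.

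Mean CPM of the members was 1.42 to 5.76 times as high in KO as in resting WT, with a median of 1.79. After 6 h of KCl it was 1.51 to 3.84 times that of the 7 h controls, with a median of 2.23. The rise was at least 2-fold in KO for 23 members, at 6 h of KCl for 45, and in both for 19. The 6 h ratio was the larger one in 44 members and the KO ratio in 21. Across the members the 2 ratios were weakly related (Spearman's rho 0.195 over 65 members, which share the same libraries), a description with no test. The lowest KO culture reached at least 2 times the highest resting WT culture in 2 members, and in the other 63 single cultures of the groups came closer than that. In such bulk libraries a change in the number of cells of a type and a change in RNA per cell cannot be told apart.

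**Figure D1:**
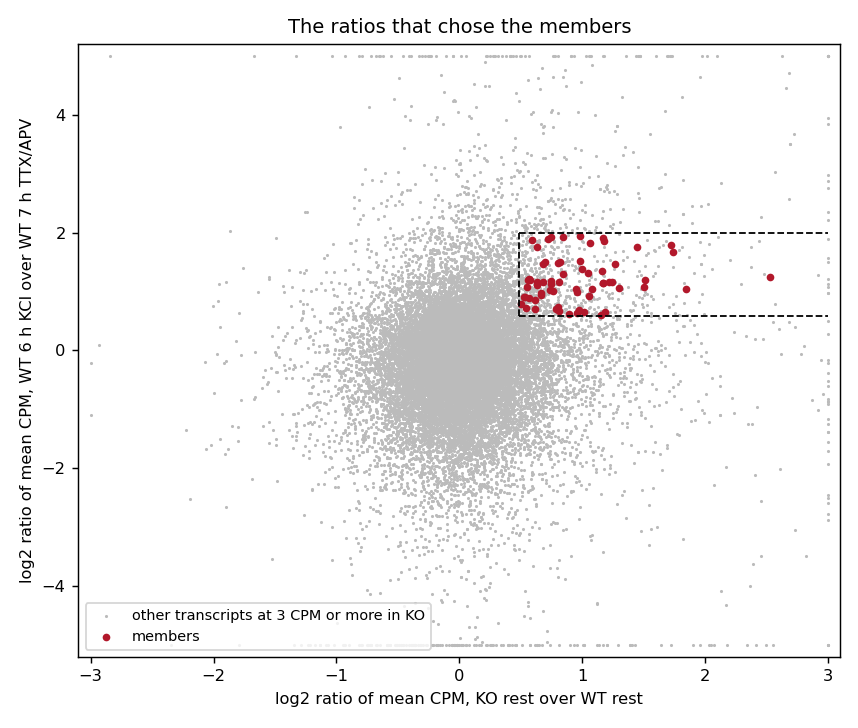
Each point is a transcript at 3 CPM or more in KO, with its log2 ratio of mean CPM in resting KO over resting WT on the x axis and in 6 h KCl over 7 h TTX/APV on the y axis. The 65 members (red) lie inside the dashed limits by construction, other transcripts inside them had overlapping groups, and points on the border of the plot lie beyond its range.

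Members close to a limit show how little separated them from transcripts left out. For the KO ratio, the nearest members stood at 1.42 (3931 bases), 1.44 (780 bases) and 1.45 (6720 bases), and the nearest of 20 transcripts that failed this condition alone at 1.38, 1.38 and 1.36. For the lower limit at 6 h, members of 3802, 6536 and 7273 bases stood at 1.51, 1.54 and 1.56, and the nearest of 13 outside at 1.48, 1.47 and 1.43. At the upper limit, members of 4032, 2330 and 3871 bases stood at 3.84, 3.80 and 3.80, and the nearest of 21 outside at 4.03, 4.07 and 4.07. The level of 3 CPM was met most narrowly by a member of 5817 bases, at 3.05 CPM, and missed by 6 transcripts, the nearest at 2.75 CPM.

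Members were ranked by the smaller of their 2 ratios, and the first was ENSMUST00000070375.7, of 1449 bases. It had 18.7, 23.9, 13.4, 13.2, 10.5, 6.85 and 8.96 CPM in the 7 KO cultures, against 6.12, 3.95, 5.21, 2.66 and 2.73 CPM in the 5 resting WT cultures. It had 9.43, 8.84 and 9.51 CPM after 6 h of KCl, against 3.53, 0.806, 2.94 and 3.47 CPM at 7 h of TTX/APV. The 3 KCl cultures were close to each other and lay within the range of the KO cultures, which spread more than 3-fold. In edgeR's quasi-likelihood fit its log2 fold change was 1.72 in KO (SE 0.345, adjusted p = 0.0205) and 1.97 at 6 h (SE 0.445, adjusted p = 0.0264), and both calls were lost when single libraries were left out. The KO call was lost without resting WT culture 3-7, 4-3 or 4-4, where the adjusted p reached 0.0631. The 6 h call was lost without any 1 of the 3 KCl cultures or without 7 h culture 4-2, and with cultures of the same code paired, with an adjusted p of up to 0.128 over the alternatives.

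The second, ENSMUST00000033591.5 of 1744 bases, had 7.22, 3.87, 9.96, 9.35, 5.24, 5.15 and 4.89 CPM in KO, against 1.70, 1.64, 1.88, 2.38 and 2.20 CPM in resting WT. After 6 h of KCl it had 6.66, 4.25 and 6.06 CPM, against 1.99, 2.60, 0.253 and 2.24 CPM at 7 h of TTX/APV. The lowest 7 h value, in culture 4-2, stood well under the others, while the resting WT cultures lay close together. Its log2 fold change in edgeR was 1.73 in KO (SE 0.281, adjusted p = 0.00694), and it was called under all alternatives. At 6 h it was 1.85 (SE 0.620) and was not called, with an adjusted p of 0.0921, although the CPM values of the groups did not overlap.

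The third, of 3555 bases, ran from 5.16 to 18.1 CPM in KO with a median of 10.6, against 3.41 to 4.62 CPM in resting WT. It had 12.3, 8.49 and 9.65 CPM after 6 h of KCl, against 1.99, 1.82, 3.54 and 4.76 CPM at 7 h of TTX/APV. KO and KCl cultures thus reached the same range from similar controls. The fourth, of 5714 bases, averaged 24.8 ± 4.66 CPM in KO (SD, n = 7) and 10.3 ± 3.01 CPM in resting WT (SD, n = 5). It had 11.3, 17.3 and 13.7 CPM after 6 h of KCl, against 4.92, 4.55, 4.78 and 6.14 CPM at 7 h of TTX/APV. Every KCl culture stayed below every KO culture here, and the level at 7 h of TTX/APV was itself 0.494 times that at rest.

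The member of 721 bases, ranked 5, had the largest KO ratio, 5.76. It had 72.3, 26.5, 45.1, 21.2, 22.8, 30.6 and 53.0 CPM in KO, against 9.02, 10.1, 4.97, 4.75 and 4.85 CPM in resting WT. The lowest KO culture was above 2 times the highest WT culture, and the KO cultures differed by more than 3-fold among themselves. It had 5.43, 5.31 and 4.96 CPM after 6 h of KCl, against 1.74, 3.37, 1.77 and 1.96 CPM at 7 h of TTX/APV, so even the stimulated level lay within the range of resting WT. Its log2 fold change in edgeR was 2.55 in KO (SE 0.384, adjusted p = 0.00517) and 1.42 at 6 h (SE 0.366, adjusted p = 0.0416), and the 6 h call was lost under 10 of 11 alternatives.

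Other large KO ratios were 3.59 for a member of 2859 bases and 2.85 for one of 5217 bases, ranked 6. The 2859-base transcript averaged 7.51 ± 1.38 CPM in KO (SD, n = 7) and 2.09 ± 0.712 CPM in resting WT (SD, n = 5). Its 6 h values of 4.84, 6.15 and 3.86 CPM, against 2.05, 2.86, 2.49 and 2.24 CPM at 7 h of TTX/APV, gave a call in edgeR (log2 fold change 1.23, SE 0.331, adjusted p = 0.0477) that none of 11 alternatives kept. The 5217-base transcript was an abundant one, at 72.1 to 166 CPM in KO against 27.0 to 52.3 CPM in resting WT. After 6 h of KCl it had 100, 94.7 and 66.2 CPM, against 28.4, 33.6, 41.4 and 48.5 CPM at 7 h of TTX/APV. Both sets of controls covered about the same range, and every KO and every KCl culture lay above all of them.

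Ranks 7 to 10 were low to moderate in level. The 1786-base member averaged 7.35 ± 1.30 CPM in KO (SD, n = 7) and 3.26 ± 1.46 CPM in resting WT (SD, n = 5), and had 13.95, 13.6 and 13.9 CPM after 6 h of KCl, against 2.30, 4.47, 4.30 and 4.26 CPM at 7 h of TTX/APV. Its KCl cultures were thus all above its KO cultures. The 12597-base member, the longest, averaged 41.5 ± 12.7 CPM in KO (SD, n = 7) and 17.8 ± 6.56 CPM in resting WT (SD, n = 5), and 41.3 ± 15.6 CPM at 6 h of KCl (SD, n = 3) and 18.4 ± 8.31 CPM at 7 h of TTX/APV (SD, n = 4). It was at the same level in both comparisons, but the spread was wide and edgeR did not call it at 6 h (adjusted p = 0.0736). The 4968-base member averaged 11.2 ± 4.01 CPM in KO (SD, n = 7) and 5.03 ± 0.872 CPM in resting WT (SD, n = 5), and 25.8 ± 9.88 CPM at 6 h of KCl (SD, n = 3) and 10.1 ± 2.86 CPM at 7 h of TTX/APV (SD, n = 4), so its KO mean was close to the 7 h control. The 5817-base member, with a mean of 3.05 ± 0.628 CPM in KO (SD, n = 7) and 1.36 ± 0.618 CPM in resting WT (SD, n = 5), was the lowest of all and was not called in KO by edgeR (adjusted p = 0.104).

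**Figure D2:**
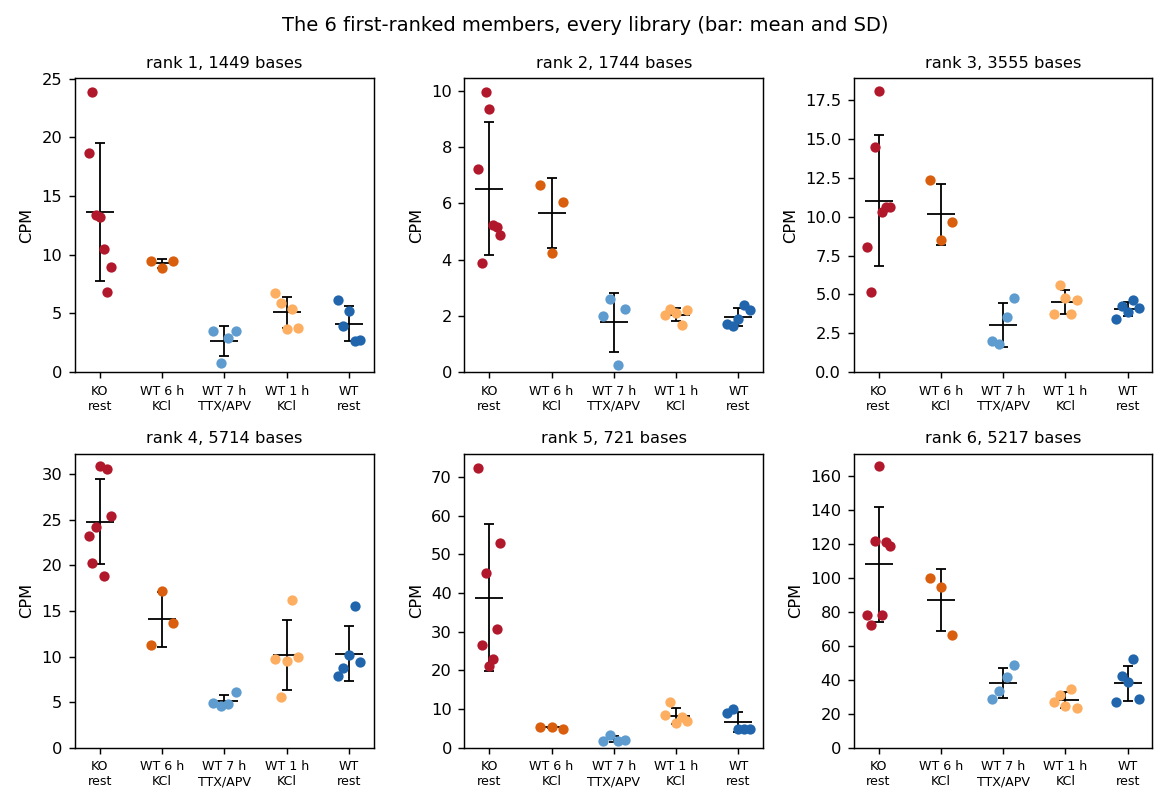
CPM of the 6 first-ranked members in every library, with each group's mean and SD as bars, for KO at rest, WT after 6 h of KCl, WT at 7 h of TTX/APV, WT after 1 h of KCl and WT at rest. KO and 6 h KCl cultures lie above their own controls in each panel, 1 h KCl cultures overlap resting WT, and in the panel of 721 bases the 6 h KCl cultures stay between 4.96 and 5.43 CPM.

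The 5 members with the highest level in KO had ratios of 1.45 to 2.09 there. The 11451-base member had 226 to 276 CPM in KO with a median of 254, against 140 to 188 CPM with a median of 171 in resting WT. After 6 h of KCl it had 804, 676 and 658 CPM, against 229, 209, 167 and 178 CPM at 7 h of TTX/APV. Its log2 fold change in edgeR was 0.60 in KO (SE 0.0841, adjusted p = 0.00356) and 2.06 at 6 h (SE 0.164, adjusted p = 0.000875). The lowest KCl culture thus had more than 2 times the highest KO value.

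The other 4 of these abundant members had higher means in KO than after 6 h of KCl. Of all transcripts at 3 CPM or more in KO, 59.9% had a KO mean at least as high as that at 6 h. The 6106-base member averaged 233 ± 37.6 CPM in KO (n = 7), 133 ± 5.07 after 6 h of KCl (n = 3), 83.1 ± 15.6 at 7 h of TTX/APV (n = 4) and 133 ± 18.4 in resting WT (n = 5; all SD). The 5039-base member averaged 184 ± 22.5 CPM in KO, 143 ± 12.2 after 6 h of KCl, 86.4 ± 4.88 at 7 h of TTX/APV and 127 ± 15.1 in resting WT. In both, the 6 h KCl cultures overlapped those of resting WT, and all cultures at 7 h of TTX/APV lay below those at rest. The same holds for the 3269-base member, at 150 ± 20.1 CPM in KO, 101 ± 9.40 after 6 h of KCl, 54.6 ± 9.09 at 7 h of TTX/APV and 101 ± 12.01 in resting WT. The 3380-base member averaged 150 ± 37.1 CPM in KO, 108 ± 28.3 after 6 h of KCl, 30.5 ± 2.59 at 7 h of TTX/APV and 71.7 ± 10.7 in resting WT, with the 6 h KCl cultures again overlapping resting WT.

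The 5 largest ratios at 6 h of KCl belonged to members of 4032, 2330, 3871, 5817 and 1757 bases, between 3.72 and 3.84. The 4032-base member had 66.1, 75.7 and 58.8 CPM after 6 h of KCl, against 20.9, 13.8, 16 and 19.1 CPM at 7 h of TTX/APV. In KO it had 31.2 to 64.0 CPM with a median of 48.1, against 20.6 to 27.6 CPM in resting WT. In edgeR its log2 fold change at 6 h was 2.14 (SE 0.175, adjusted p = 0.000962), the only call among these 5 members at 6 h that held under all 11 alternatives. The 2330-base member had 25.7, 26.7 and 41.9 CPM after 6 h of KCl, against 9.09, 4.87, 11.1 and 8.02 CPM at 7 h of TTX/APV, and the 3871-base member had 20.05, 16.7 and 16.3 CPM, against 6.29, 3.77, 3.17 and 5.37 CPM. In the 1757-base member 29.2, 36.5 and 23.99 CPM after 6 h of KCl stood against 5.36, 16.3, 7.33 and 3.08 CPM at 7 h of TTX/APV, so its controls spread more than 5-fold.

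**Figure D3:**
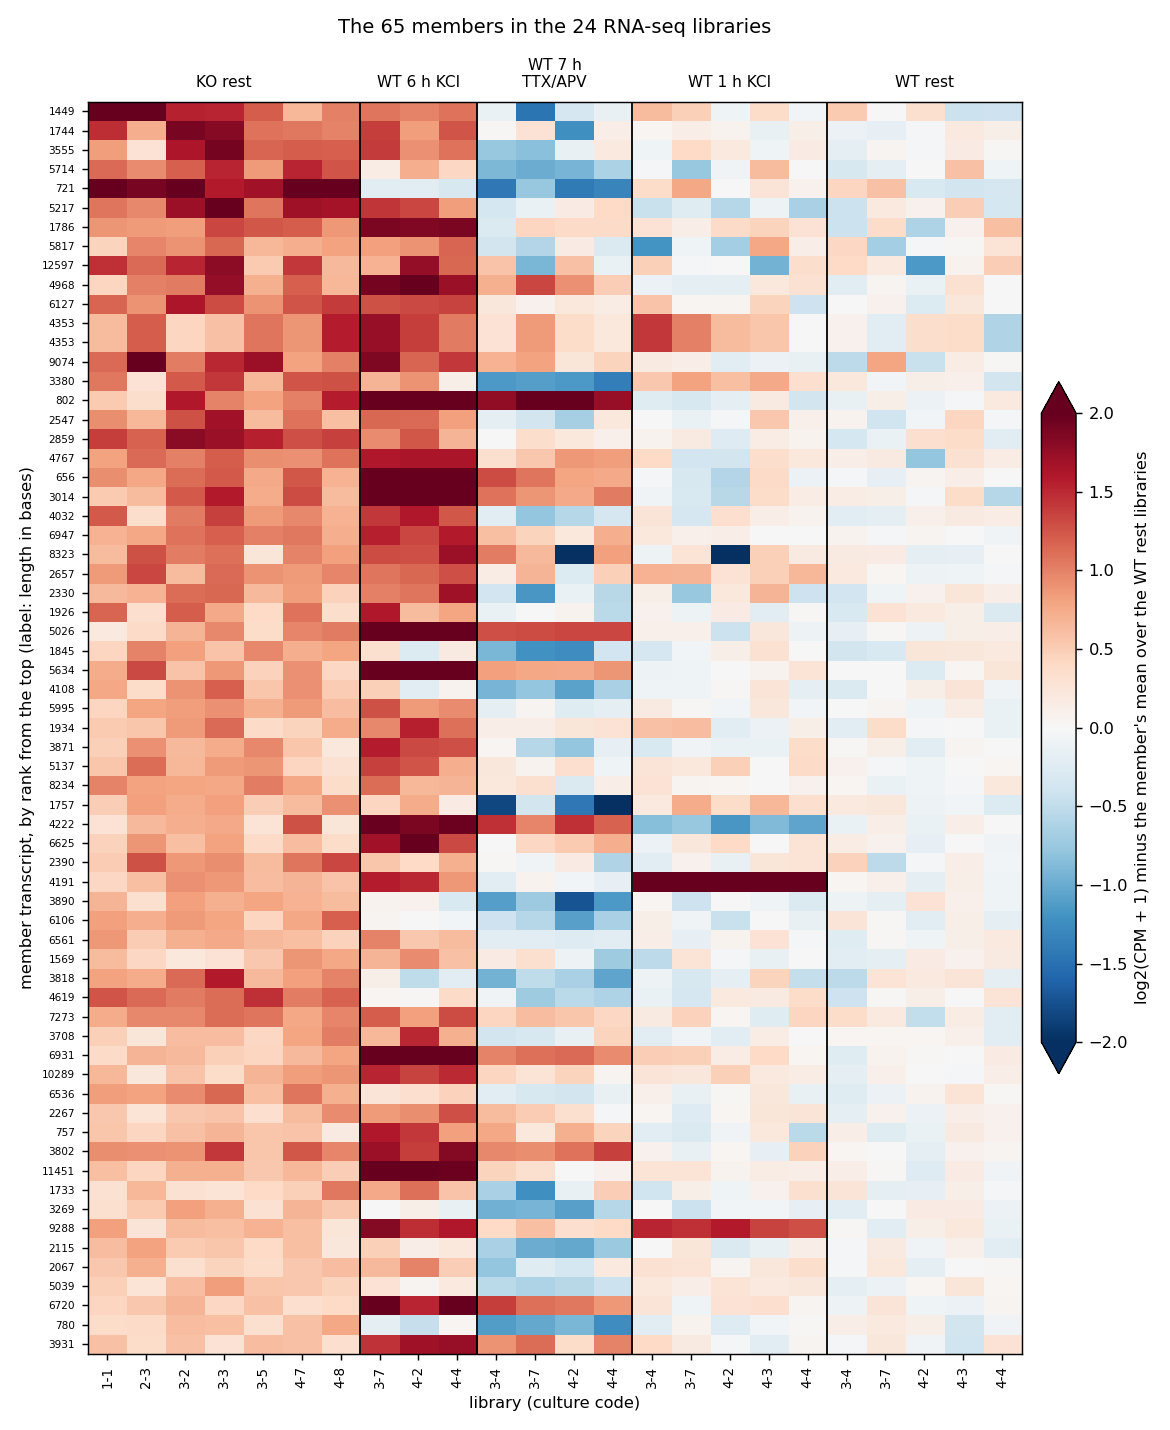
Log2(CPM + 1) of the 65 members (rows, labelled by length in bases, in rank order) in the 24 libraries (columns, labelled by culture code), minus the member's mean over resting WT, on a colour scale from -2.0 to 2.0. KO columns are red in all rows and 6 h KCl columns in most, 1 h KCl columns stay near 0 except in rows such as 4191 and 9288 (higher) and 4222 (lower), and the 7 h TTX/APV columns are blue in some rows and red in others.

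Tested over all transcripts with edgeR, 55 of the 65 members passed an adjusted p of 0.05 as higher in KO, where 1.30% of the 32904 tested transcripts were called higher, and 0 as lower, where 1.63% were. At 6 h of KCl 58 members passed, where 8.46% of 33196 tested transcripts were called higher, and 0 were called lower, where 6.88% were. Both contrasts chose the members, so nothing is read from these counts. A total of 51 members passed in both and 3 in neither. The 10 members not called in KO had adjusted p-values of 0.0592 to 0.138 and the 7 not called at 6 h had 0.0560 to 0.447, in edgeR. A fit that pairs 6 h KCl and 7 h cultures of the same code called 15 members at 6 h in place of 58, and 812 transcripts in all in place of 5091. Calls in KO numbered 36 members without resting WT culture 3-4 or 4-2 and 32 without 4-4, and those at 6 h 34 without KCl culture 3-7 and 37 without 4-2. P-values measure the spread between these cultures, which the series calls biological replicates.

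The scale matters for the 6 h comparison. With library totals in place of TMM factors, all transcripts had a median log2 fold change of -0.23 in place of -0.03, and the calls split into 1934 higher and 3373 lower in place of 2808 higher and 2283 lower. Of the members, 47 then passed as higher at 6 h, and all 65 kept a positive fold change. The largest log2 fold change of a member at 6 h was 1.93 with library totals and 2.14 with TMM. The value with TMM is above 4-fold, so the upper limit of the rule holds for CPM and not for every scale. The 8323-base member failed the 6 h test most widely (adjusted p = 0.447 in edgeR), and was singled out after its values were seen. It had 30.01, 29.7 and 39.7 CPM after 6 h of KCl, against 24.4, 18.6 and 21.2 CPM in 3 of the 7 h cultures and 7.55e-07 CPM in the other, 4-2. The 1 h KCl library of the same culture stood at 1.22e-05 CPM while the other 4 had 10.7 to 16.4 CPM, and resting 4-2 had 10.03 CPM. Whether its reads went to another transcript in these libraries was not tested. Without the 7 h library of culture 4-2, the adjusted p at 6 h was 0.0340 in edgeR.

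The 1 h KCl libraries took no part in the choice, although the resting WT libraries they are compared with did. The median ratio of mean CPM after 1 h of KCl over resting WT was 1.04 among the members and 0.990 among all 23481 transcripts at this level. The ratio stayed within 1.2-fold either way in 50 members, was above that in 13 and below it in 2. All 5 KCl cultures lay above all 5 resting cultures in 5 members, where 3.38% of all transcripts at this level did so, and below them in 1, where 4.26% did. In the other 59 the groups overlapped.

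In edgeR, 4 of 64 tested members were higher at 1 h, where 2.54% of 31673 transcripts were called higher, and 1 was lower, where 2.00% were. At an unadjusted p of 0.05, 13 members (20.3%) were higher, where 7.86% of all transcripts tested were, and 2 (3.12%) were lower, where 8.09% were. The 13 include both 4353-base members, which have identical values in every library. Resting WT values took part in the choice, so nothing is read from this excess of higher members. The median log2 fold change was 0.07 among members, 44 of them positive and 20 negative, and 0.00 among all transcripts tested. With cultures of the same code paired, 3 members were called higher, where 1.38% of all were, and 0 lower, where 0.695% were. Whether the 6 h response of the members differed from their 1 h response was not tested.

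The members called at 1 h are named here after their values were seen. The 4191-base member averaged 266 ± 33.1 CPM in the 1 h KCl group (SD, n = 5) and 33.6 ± 2.99 CPM in resting WT (SD, n = 5), which edgeR fitted as a log2 fold change of 3.00 (SE 0.0984, adjusted p = 1.58e-07). At 6 h of KCl it averaged 86.5 ± 21.7 CPM (SD, n = 3), against 31.4 ± 2.89 CPM at 7 h of TTX/APV (SD, n = 4), and in KO 53.9 ± 6.67 CPM (SD, n = 7). Its level at 1 h was thus the highest of its 5 groups, with every 1 h culture above every 6 h one. The 9288-base member averaged 193 ± 16.6 CPM in the 1 h KCl group (SD, n = 5) and 70.6 ± 8.83 CPM in resting WT (SD, n = 5), which edgeR fitted as a log2 fold change of 1.46 (SE 0.109, adjusted p = 4.14e-05). Its 6 h level was 221 ± 28.5 CPM (SD, n = 3), against 95.5 ± 8.06 CPM at 7 h of TTX/APV (SD, n = 4). Both calls held under all 14 alternatives.

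The other 2 higher calls at 1 h were weaker. The 2657-base member averaged 12.4 ± 1.55 CPM after 1 h of KCl and 8.09 ± 0.817 CPM in resting WT (SD, n = 5 each; log2 fold change 0.63, SE 0.133, adjusted p = 0.0231 in edgeR), a call lost in 9 of 14 alternatives. The 3380-base member averaged 110 ± 13.8 CPM after 1 h of KCl and 71.7 ± 10.7 CPM in resting WT (SD, n = 5 each; log2 fold change 0.62, SE 0.131, adjusted p = 0.0235 in edgeR), a call lost in 4 of 14. Both calls were lost without resting WT culture 3-7 or without 1 h KCl culture 3-7. The lower call was the 4222-base member, with 1.46, 1.63, 0.993, 1.43 and 1.15 CPM after 1 h of KCl, against 3.05, 3.90, 3.07, 3.90 and 3.43 CPM in resting WT (log2 fold change -1.39, SE 0.225, adjusted p = 0.00570 in edgeR, and 0.0529 with codes paired). The same transcript had 16.4, 15.5 and 16.4 CPM after 6 h of KCl, against 11.2, 7.77, 11.2 and 9.14 CPM at 7 h of TTX/APV, so it moved opposite ways at the 2 times with no overlap in either.

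The 7 h TTX/APV controls and the resting cultures differ in the time under blockers, and the members moved both ways between them. The ratio of mean CPM at 7 h over 2 h had a median of 1.00 among members, from 0.328 to 5.10, and of 0.923 among all transcripts at this level. All 7 h cultures lay above all resting ones in 16 members, where 22.5% of all transcripts did, and below them in 12, where 23.3% did. In edgeR, 10 of 64 tested members were higher at 7 h, where 28.3% of 35933 transcripts were called higher, and 23 were lower, where 25.7% were. With library totals in place of TMM, 16 members were higher and 14 lower, and the split of all calls was 12997 higher and 5979 lower in place of 10161 and 9241. The members' median log2 fold change was -0.36 with TMM and 0.04 with library totals, beside -0.03 and 0.37 for all transcripts, so the direction of the list's median depends on the scaling. Under both scalings it lay below the median of all transcripts. Both groups of controls took part in the choice of members, so nothing is read from this.

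The extremes of this comparison, picked after their values were seen, kept their direction under all 13 alternatives. The 721-base member had 0.328 times its resting level at 7 h of TTX/APV (log2 fold change -1.96, SE 0.369, adjusted p = 0.00171 in edgeR). The 802-base member had 13.2 ± 2.71 CPM at 7 h (SD, n = 4) and 2.59 ± 0.376 CPM in resting WT (SD, n = 5), which edgeR fitted as a log2 fold change of 1.96 (SE 0.208, adjusted p = 6.19e-05). It reached 24.2, 35.7 and 22.7 CPM after 6 h of KCl while KO cultures stayed at 3.58 to 9.82 CPM, so every KCl culture was above every KO culture.

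**Figure D4:**
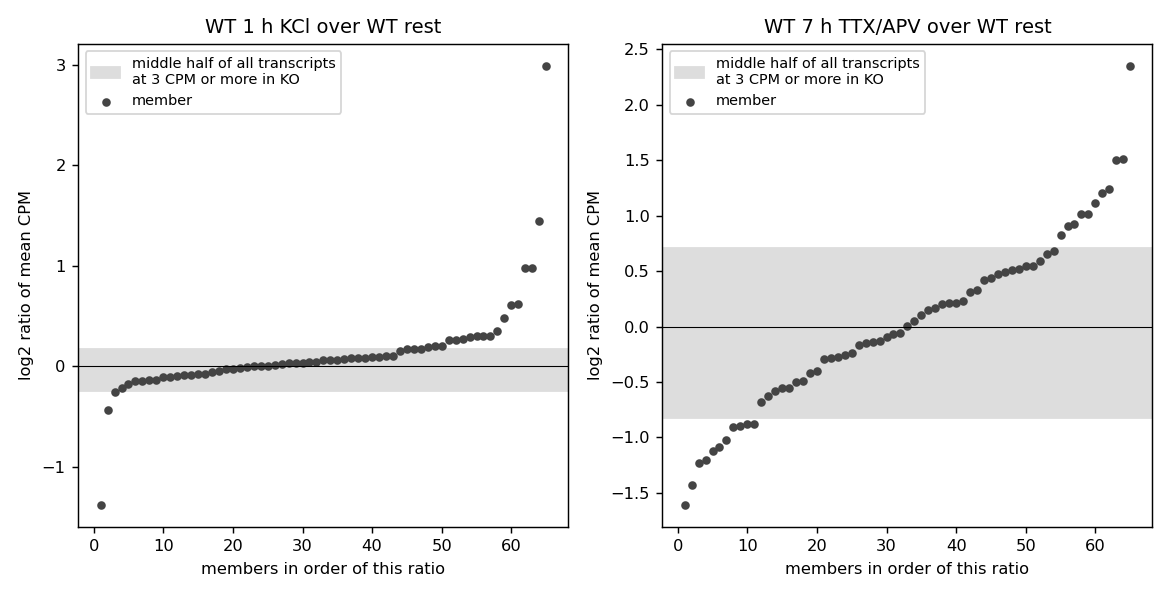
Log2 ratio of mean CPM over resting WT for each member, in increasing order, after 1 h of KCl (left) and at 7 h of TTX/APV (right), with a grey band for the range between the quartiles of all transcripts at 3 CPM or more in KO. At 1 h most members lie within the band around 0 and 2 of them reach 1.45 and 2.99, and at 7 h they spread over and beyond a wider band on both sides.

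Set side by side without their own controls, the KO and KCl levels differed in both directions. The rule used the KO, 6 h KCl and resting WT values, so the counts that follow describe the members and nothing is read from their distance to the shares of all transcripts. The mean was higher in KO than after 6 h of KCl in 22 members (33.8%), where the KO mean was at least as high in 59.9% of all transcripts at this level. All KO cultures lay above all 6 h KCl cultures in 10 members, where 26.5% of all transcripts at this level did, and below them in 19, where 19.6% did. These groups also differ in time under blockers and in library depth, so the comparison cannot be told apart from those. Relative to resting WT, the 6 h KCl mean was higher in 59 members, with all cultures above in 49, where 21.7% of all transcripts did so, and all below in 0, where 31.1% did. In the other 6, the 6 h KCl mean lay above the 7 h controls but not above resting WT. Against 1 h of KCl, which had the same time under blockers as KO, the KO mean was higher in 63 members. How many of all transcripts had a higher mean was not counted for the 59 and the 63. All KO cultures lay above all 1 h KCl cultures in 41, where 6.06% of all transcripts did, and below them in 2, where 6.19% did.

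A level per library was taken as the mean log2(CPM + 1) of the members minus that of all 23481 transcripts at this level. It was 0.918 ± 0.106 in KO (SD, n = 7), 1.42 ± 0.102 after 6 h of KCl (n = 3), 0.148 ± 0.0803 at 7 h of TTX/APV (n = 4), 0.228 ± 0.0650 after 1 h of KCl (n = 5) and 0.0890 ± 0.0668 in resting WT (n = 5). That the first group lies above resting WT and the second above the 7 h controls follows from the choice of members. The 1 h KCl libraries ran from 0.143 to 0.320 and the resting WT libraries from 0.0397 to 0.206, so the ranges of these neighbours overlapped, as did those of the 7 h and resting controls. Within each of the 5 culture codes, however, the 1 h KCl library lay above the resting WT library, by 0.103 to 0.182. The median log2 fold change of the members at 1 h was 0.07 in edgeR, with 44 positive and 20 negative. Members of 4191 and 9288 bases, at 3.00 and 1.46, weigh on a mean over members, and the level without them was not computed. The 7 h library lay above the resting one in the 4 codes that have both, by 0.129 (3-4), 0.143 (3-7), 0.000416 (4-2) and 0.0815 (4-4). The subtracted mean of all transcripts was lower at 7 h in each of these 4 codes, as in 3-7, from 3.94 to 3.79. The members' own mean was higher at 7 h in 3-4 and 4-4 and lower in 3-7 and 4-2. Its group mean was 3.99 both at 7 h and at rest. Resting WT values were chosen low relative to KO, so these differences are given with no test. The distinct members summed to 2836 to 3630 CPM in KO, 3866 to 4396 CPM after 6 h of KCl, 1597 to 1822 CPM at 7 h of TTX/APV, 2136 to 2334 CPM after 1 h of KCl and 1704 to 1956 CPM in resting WT. The sums after 1 h of KCl lay above those of resting WT in every culture, with the 4191-base member alone at 266 CPM on average.

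**Figure D5:**
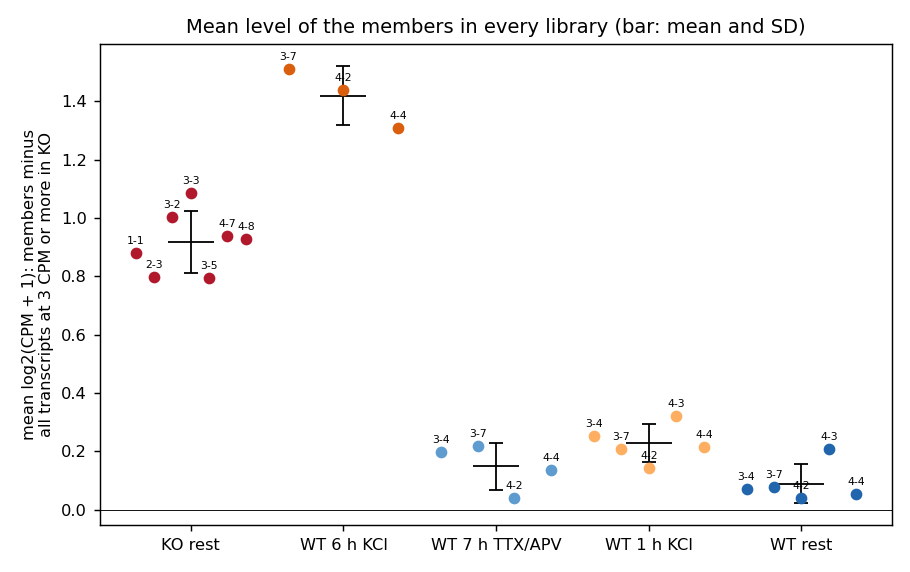
Mean log2(CPM + 1) of the members minus that of all transcripts at 3 CPM or more in KO, 1 point per library labelled with its culture code, with each group's mean and SD as bars. KO libraries lie from 0.795 to 1.09 and 6 h KCl libraries from 1.31 to 1.51, and the other 3 groups lie between 0.0397 and 0.320 with overlapping ranges, the 1 h KCl point being above the resting WT point of the same code in all 5 codes.

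The KO culture with the highest or lowest value varied among the members. Such ranks were not counted over all transcripts at 3 CPM or more in KO. The members also share the same libraries, so the counts that follow are a description only. Culture 3-3 was the highest KO culture for 23 of the 65 members, and had the highest level per library, 1.09. Culture 4-8 was highest for 12 members but lowest for 13, and culture 2-3 highest for 10 but lowest for 16, so these ranked at both ends depending on the transcript. In resting WT, culture 4-3 was the highest for 27 members and culture 3-4 the lowest for 25. The coefficient of variation of a member's CPM had a median of 18.8% in KO, 17.2% after 6 h of KCl, 19.6% at 7 h of TTX/APV, 16.8% after 1 h of KCl and 14.5% in resting WT.

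Culture codes have 2 numbers, and the labels do not say what the first one marks. Within code 3, with 3 KO and 2 resting WT cultures, the ratio of means ran from 1.24 to 5.63 with a median of 1.88, and was at least 1.4 in 60 members. Within code 4, with 2 KO and 3 resting WT cultures, it ran from 1.29 to 8.61 with a median of 1.88, and was at least 1.4 in 59. A ratio above 1 within either code follows from the rule, which set all KO cultures above all resting WT cultures. Of 6 h KCl over 7 h TTX/APV within a culture, the median ratio was 2.31 in 3-7, 2.33 in 4-2 and 2.07 in 4-4, and 46 members reached at least 1.5 in all 3 cultures.

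The rule did not use length. The members' length had a median of 4032 bases with quartiles of 2267 and 5995, beside 2984 bases with quartiles of 1712 and 4441 for all 23481 transcripts at this level. Of the members, 43 (66.2%) had 3000 bases or more, beside 49.7% of all, and 16 (24.6%) had 6000 or more, beside 11.95%. The transcripts that met the KO conditions alone had a median of 3156 bases and those that met the KCl conditions 3221. CPM grows with length, and members were also higher in CPM, with a median of 26.5 in KO beside 11.7 for all. The share of the members with 3000 bases or more was thus above that of all transcripts, a description with no test, and the part of the level in it was not tested.

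Per length, as transcripts per 1000000 transcripts (TPM), the members' mean level in KO had a median of 12.1, from 0.761 to 179 TPM, beside a median of 7.94 TPM for all transcripts at this level. The highest were members of 656 bases (179 TPM), 780 bases (146 TPM) and 721 bases (104 TPM). Members of 3269, 3380 and 3014 bases followed at 68.5, 66.3 and 56.2 TPM, and the long 11451-base member, first in CPM, stood at 31.7 TPM. On the deposited TPM the KO ratio of the members was 1.35 to 5.51 with a median of 1.71 and the 6 h ratio 1.55 to 4.03 with a median of 2.30. The groups were separated in both comparisons for 37 of the 65 on that scale and the whole rule was met by 31, so for many members the lack of overlap depends on the unit.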

How the data were processed

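RNA-seq of 24 libraries was used. The submitters' processing notes list kallisto 0.44.0 and Trim Galore among their tools, without the step of each, and mm10 beside mm9 as builds. Per the file headers, the deposited files give for each transcript its length, effective length, estimated count and TPM. The authors' estimated counts need not be whole, and depend on how reads were divided among transcripts of a gene. The authors' TPM values are scaled per length and library.

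The members and all lists were chosen with earlier results of these data known. CPM was computed as the estimated count over the library's sum. Estimated counts were rounded and tested with edgeR 4.0.16 in R 4.3.3 (quasi-likelihood F-test, robust, TMM, filterByExpr), with Benjamini-Hochberg adjustment over all transcripts tested and a threshold of 0.05. A fit took in the groups of its own comparison alone, and was tested on simulated data. The log2 fold changes are of fitted values. Mean levels used log2(CPM + 1).

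Members named in the text were the first 10 by the smaller of the 2 log2 ratios, the 5 highest in KO, the 5 largest ratios in each comparison and the 3 nearest each threshold; only the first 2 identifiers are printed, since identifiers had no gene name. Tests had been planned per gene and with gene lists and cell type markers, and these were not analysed here. ATAC-seq regions were not used here, as the files give no positions for transcripts.

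Alternatives were DESeq2 1.42.0, library totals without TMM, other size factors for CPM, no filter, other minimum levels, a replicate block by culture code, a covariate for the code's first number, leaving out each library and, added after seeing the data, the deposited TPM. The series states 5 WT biological replicates and WT libraries have 5 different codes, so libraries with a common code were taken as 1 replicate. Deviations of libraries with a shared code correlated at -0.0484 to 0.102 over 12 pairs, and 7 of 12 correlated best with their own code. KO and WT share no code, so no block was fitted there.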

Additional observations from a re-analysis of the deposited data

Results flagged for a closer look

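Among 104 groups of 4 to 7 libraries examined for the named members, 3 held a library that stood apart by Dixon's test, where chance gives about 1 in 20. The 721-base member had 3.375 CPM in 7 h TTX/APV culture 3-7, with the next value at 1.961 CPM. The 1786-base member had 2.30 CPM in 7 h TTX/APV culture 3-4, with the next at 4.265 CPM. The 2859-base member had 1.547 CPM in 1 h KCl culture 4-2, with the next at 2.173 CPM.

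The 4222-base member moved opposite ways at the 2 times of KCl. Its mean CPM after 1 h of KCl was 0.384 times that of resting WT, with all 5 cultures below all 5, and after 6 h of KCl it was 1.636 times that of 7 h TTX/APV, with all 3 above all 4. The difference between these responses was not tested.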

How the results depend on the processing

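The rule kept 65 transcripts. It kept 37 on the deposited TPM, of which 31 were among the 65, and 66 to 106 when 1 library was left out, with 106 without resting WT culture 4-3. Other scalings, minimum levels and the replicate block gave 52 to 82. CPM with TMM-scaled library sizes kept 81, of which 52 were among the 65. With DESeq2 size factors 82 were kept, 54 of them members, and with the replicate block 70, 56 of them members. At a minimum of 1 CPM all 65 were kept, among 70. Calls in KO numbered 966 in edgeR, 1992 in DESeq2, 456 with no filter on low counts and 439 to 967 without single libraries (511, 517, 439 and 474 without resting WT culture 3-4, 3-7, 4-2 and 4-4, and 581 and 530 without KO culture 3-2 and 4-7), and members called 55, with 32 to 56 without single libraries. At 6 h of KCl the calls numbered 5091, 812 with the replicate block and 3054 to 4044 without single libraries (3054 and 3055 without KCl culture 3-7 and 4-2, and 3376 without 7 h culture 3-4), and members called 58, 15 with the block and 34 to 49 without single libraries. At 1 h of KCl the calls numbered 1438, 2723 in DESeq2, 656 with the replicate block and 1014 to 1285 without single libraries. Members called higher there were 4, with 2 to 4 without single libraries (2 without resting WT culture 3-7 or 1 h KCl culture 3-7), and members called lower 1, or 0 with the block. At 7 h of TTX/APV, members called higher were 10, 16 with library totals and 6 with no filter, and members called lower 23, or 14 with library totals. Values of single members under alternatives numbered 1201. They covered the 26 named members in KO and at 6 h, and the members called at 1 h or 7 h. Of these values, 997 kept direction and call, 199 lost the call, 5 gained it and none turned round. The rule set the direction in KO and at 6 h, and a call at 1 h or 7 h could only be kept or lost. Nothing is therefore read from these counts. Signs did turn among members not called. The log2 fold change ran from -0.245 to 0.184 for 5714 bases at 1 h. For 6127 bases at 7 h it ran from -0.426 to 0.185. The cause of these changes was not tested, beyond the smaller number of libraries in fits that leave one out. Libraries of the 7 h blockade were shallower, which limits the 6 h comparison. Counts summed per gene and accessibility near members were not run.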
